A study of Mus musculus with 36 samples.

Results

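Thapsigargin was given to 2 lines of mouse embryonic fibroblasts (MEFs, connective tissue cells grown from embryos), 1 deleted for the kinase PERK and 1 deleted for the kinase GCN2, and the RNA response of the PERK-deletion line was compared with that of the GCN2-deletion line. The measure is a difference of effects: thapsigargin minus solvent in the PERK-deletion line, minus the same in the GCN2-deletion line, on the scale log2(TPM + 1). TPM is a length-normalized transcript abundance with the same total in every library. The comparison uses 12 of the 36 libraries of the series, chosen by their labels alone, and no wild-type library. The 4 groups of 3 libraries are GCN2 delete with DMSO, GCN2 delete with 200 nM thapsigargin, PERK delete with DMSO and PERK delete with 200 nM thapsigargin. DMSO is the usual solvent of the drug, and all cells grew in RPMI 1640 medium with serum. Thapsigargin treatment lasted 6 h, and no time is given for DMSO. The labels do not name the control of thapsigargin, and DMSO of the same line was taken as such. The 3 libraries of a group are called technical replicates, and each genotype is represented by 1 line. Every p-value therefore measures only the spread between such replicates, and the effect of a deletion and of the line that carries it cannot be told apart. No labels say which part of either kinase gene was removed.

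Thapsigargin blocks the pump that fills the endoplasmic reticulum (ER) with calcium, and proteins then misfold there. In the unfolded protein response, PERK, IRE1 and ATF6 sense this in the ER membrane. PERK phosphorylates the translation factor eIF2alpha, which slows protein synthesis while the transcription factor ATF4 is made in larger amounts. ATF4 and its partner CHOP then switch on genes for amino acid supply, redox balance and cell death. GCN2 phosphorylates the same site of eIF2alpha when uncharged tRNA accumulates. IRE1 splices Xbp1 mRNA, and XBP1 and cleaved ATF6 raise ER chaperones and the machinery that removes misfolded proteins. The series sets out to find genes that answer to 1 of these eIF2alpha kinases and not to the other.

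A response difference below 0 means a smaller rise, or a deeper fall, in the PERK-deletion line. A difference or effect is called when limma's p, adjusted by the Benjamini-Hochberg method over all 14822 genes tested, is under 0.05. All adjusted p-values below are limma's. The libraries of a group correlated at 0.966 to 0.985. Genes annotated as microRNAs took 0.878% to 3.57% of TPM, and 3 libraries stood above 2%: PERK-deletion DMSO 3, GCN2-deletion thapsigargin 2 and GCN2-deletion DMSO 1. Of 10 fibroblast markers, 9 reached a mean of 1 TPM in at least 1 of the 4 groups, the rule for all marker lists. The summed level of the 10 was 3154 to 3358 TPM over the 6 PERK-deletion libraries. In the GCN2-deletion line it was 6570 to 6906 TPM with DMSO and 5568 to 5724 TPM with thapsigargin. All 9 tested were lower in the PERK-deletion line with DMSO. Group means there were 15.2 against 1339 TPM for Col1a1, 0.70 against 88.6 TPM for Col3a1 and 0.32 against 20.8 TPM for Pdgfra. Vim (2114 TPM) and Fn1 (823 TPM) were the largest parts of the PERK-deletion sum with DMSO. Of 10 smooth muscle markers 6 reached 1 TPM, with sums of 1304 to 1662 TPM in the PERK-deletion line and 2122 to 3190 TPM in the other. Of 10 neural markers 4 did, with 14.9 to 19.2 TPM in the PERK-deletion line, and in the GCN2-deletion line 23.97 to 29.04 TPM with DMSO and 39.7 to 46.0 TPM with thapsigargin. Of 10 each, 3 endothelial, 3 adipocyte, 2 macrophage and 0 epithelial markers reached a mean of 1 TPM. The part of these line and treatment differences in the responses below was not tested. Depth is unknown, because TPM does not keep it. The scale of TPM also matters here. Over all genes the median response difference was -0.14, and it was 0.02 after rescaling each library by the median of its ratios to the others. The 3 GCN2-deletion DMSO libraries had size factors of 0.968, 0.910 and 0.912 against 0.990 to 1.07 in the other 9. Gene values below are read against that shift, and counts after rescaling are given beside those of response differences, and beside those of 1 line where they move by over 1.5 times.

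The 2 deleted kinases were read first, as a check of the labels. Eif2ak4, which encodes GCN2 (chromosome 2, 118388618 to 118475234, GRCm38, plus strand), stood at 7.69, 5.37 and 4.55 TPM with DMSO and 7.89, 5.36 and 6.87 TPM after thapsigargin in the 3 libraries of each GCN2-deletion group. PERK-deletion libraries held 23.5, 24.8 and 21.3 TPM and 23.7, 22.7 and 21.96 TPM, so the lines did not overlap. Eif2ak3, which encodes PERK (chromosome 6, 70844515 to 70905245, plus strand), stood at 4.33, 4.82 and 4.34 TPM with DMSO and 9.26, 8.06 and 8.51 TPM with thapsigargin in the PERK-deletion line. The GCN2-deletion libraries held 10.9, 9.49 and 9.43 TPM and 20.7, 17.1 and 19.9 TPM. Eif2ak3 was thus lower in the PERK-deletion line under both conditions, but its mRNA was present there and rose with thapsigargin by 0.80 on the log2 scale, against 0.88 in the other line. That response did not differ beyond the spread (response difference -0.08 ± 0.13 SE, limma adjusted p = 0.695). A whole-gene TPM can hold transcript left after a deletion. The 2 other eIF2alpha kinases, Eif2ak1 (HRI) and Eif2ak2 (PKR), were not called in either line, and their response differences were -0.04 ± 0.07 and -0.12 ± 0.10.

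The lines differed widely in how many genes answered the drug. In the GCN2-deletion line 4384 genes rose (29.6% of those tested) and 1814 fell (12.2%). In the PERK-deletion line 467 rose (3.15%) and 490 fell (3.31%). After rescaling 3079 rose (20.8%) and 3385 fell (22.8%) in GCN2-deletion cells, so the balance of rises and falls there turned with the scaling, and 674 rose (4.55%) and 421 fell (2.84%) in PERK-deletion cells. Of the 467 genes that rose in the PERK-deletion line, 344 also rose in the GCN2-deletion line, which is 73.7% of the first list and 7.85% of the second. For falling genes the shared set was 221, or 45.1% and 12.2% of the lists. Tested directly, the response was lower in the PERK-deletion line for 3402 genes (23.0%) and higher for 902 (6.09%). After rescaling the split was 2089 lower (14.1%) and 2198 higher (14.8%), so the excess of lower over higher calls depends on the scaling. Among differences of at least 2-fold, 394 were lower and 84 higher as deposited, and 251 were lower and 133 higher after rescaling, an excess in the same direction on both scales. Without the 3 libraries above 2% microRNA the counts were 4914 lower and 1175 higher. The count of 490 genes that fell in PERK-deletion cells was 1011 without those 3 libraries. It was 244, 259 and 286 without thapsigargin 1, 2 or 3 of that line, 310 and 235 without its DMSO 1 or 2, and 795 without GCN2-deletion DMSO 1.

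**Figure D1:**
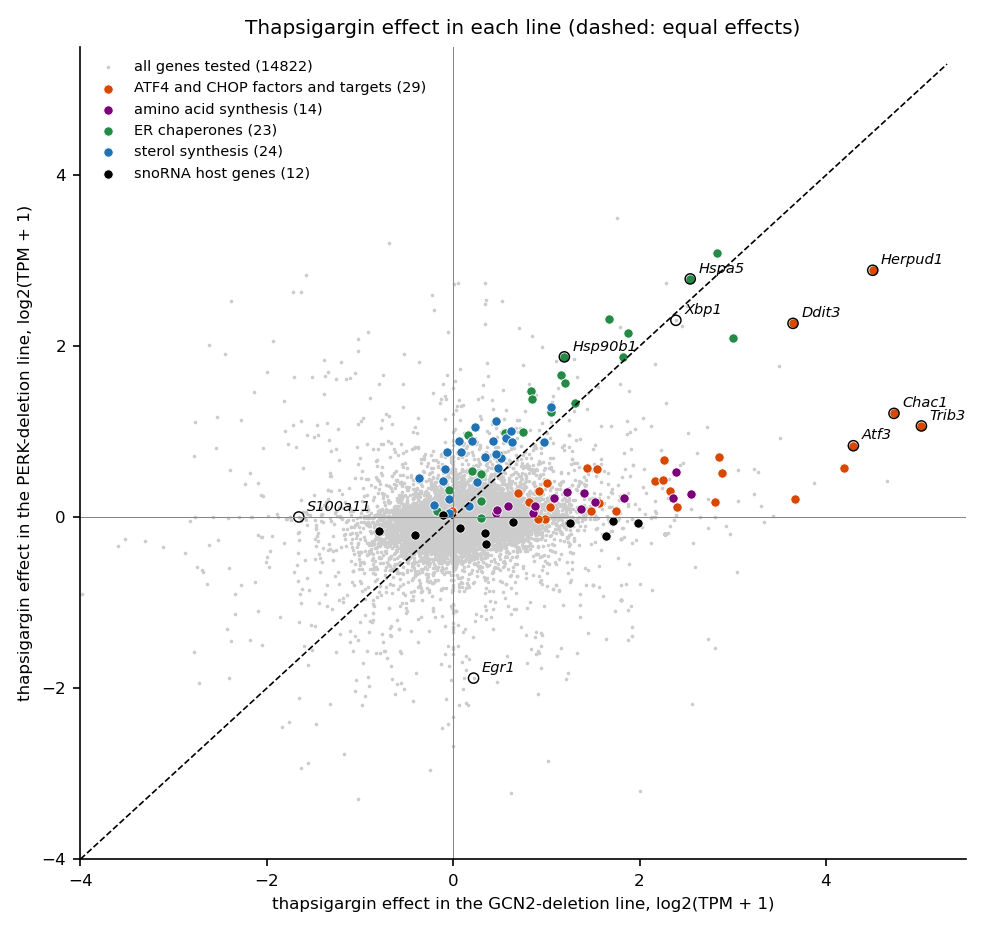
Each grey point is 1 of the 14822 genes tested, placed by its thapsigargin effect on log2(TPM + 1) in the GCN2-deletion line (horizontal) and in the PERK-deletion line (vertical); the dashed line marks equal effects, colours mark 5 gene groups and named genes are ringed. ATF4 and CHOP genes such as Trib3 (5.03 and 1.07) and Chac1 (4.73 and 1.21) lie far below the line, whereas Hspa5 (2.54 and 2.79) and Xbp1 (2.39 and 2.30) lie close to it.

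Transcription factors of the eIF2alpha branch rose in both lines or in the GCN2-deletion line, and all 8 tested had a lower response in the PERK-deletion line, also after rescaling. Their median response difference was -1.40, against -0.14 over all genes. All 8 rose in the GCN2-deletion line and 4 in PERK-deletion cells. The GCN2-deletion libraries held 320.4, 322 and 315 TPM of Atf4 mRNA with DMSO and 946, 879 and 972 TPM with thapsigargin. The PERK-deletion libraries held 346, 371 and 330.3 TPM with DMSO and 509.7, 521 and 518 TPM with thapsigargin. The thapsigargin groups did not overlap: Atf4 rose by 1.54 in the GCN2-deletion line and 0.57 in PERK-deletion cells on the log2 scale, a response difference of -0.98 ± 0.07 (SE, limma adjusted p = 7.92e-06). Atf4 lies on chromosome 15, from 80255184 to 80257541 on the plus strand.

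Ddit3, the gene for CHOP, rose strongly in both lines. Its DMSO libraries held 40.2, 36.1 and 34.7 TPM in the GCN2-deletion line and 56.5, 58.7 and 50.1 TPM in the PERK-deletion line. With thapsigargin they reached 484, 451 and 489 TPM and 269, 267 and 269.8 TPM. So the PERK-deletion line began higher and ended lower, with no overlap at either point, and rose by 2.27 against 3.65 on the log2 scale (response difference -1.38 ± 0.09, limma adjusted p = 6.64e-06). Atf3, a stress-induced bZIP transcription factor, stood at 3.35, 4.11 and 2.99 TPM in the GCN2-deletion line with DMSO and at 91.6, 80.8 and 87.6 TPM with thapsigargin. The PERK-deletion line went from 6.597, 7.17 and 4.80 TPM to 12.3, 12.2 and 10.6 TPM. Both rises passed the test, by 4.29 and 0.84, and Atf3 had the largest response difference of the 8 factors at -3.46 ± 0.19 (limma adjusted p = 1.53e-06). Cebpb, a CHOP partner, rose by 1.75 in the GCN2-deletion line, and its effect in the PERK-deletion line was 0.07 (limma adjusted p = 0.816). Jdp2, which binds the same sites as AP-1, was alike (1.48 and 0.07, limma adjusted p = 0.558 in the PERK-deletion line). Nupr1, a stress-induced chromatin protein, rose in both lines, by 2.26 and 0.67.

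Stress genes under ATF4 and CHOP had the lowest median response difference of the 29 pathway lists. Of 21 tested members of 22 listed, 19 had a lower response in the PERK-deletion line, with a median response difference of -1.74, and the count was also 19 after rescaling, when 1 was called higher. GCN2-deletion cells raised 20 of them and PERK-deletion cells 10. Trib3, a pseudokinase that feeds back on ATF4, was at 6.38, 5.38 and 4.78 TPM with DMSO and 208, 206 and 216 TPM after thapsigargin in GCN2-deletion libraries. PERK-deletion cells had it at 33.0, 34.9 and 32.4 TPM and 72.5, 67.9 and 72.9 TPM. With DMSO the PERK-deletion libraries were the higher ones, and with thapsigargin the lower ones, without overlap. The mean rose 38.1-fold in the GCN2-deletion line and 2.13-fold in PERK-deletion cells, and the response difference of -3.96 ± 0.11 was the lowest among the genes eligible to be named (limma adjusted p = 2.79e-08).

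Chac1, which degrades glutathione, followed the same course. It stood at 12.2, 12.5 and 11.2 TPM and then 344, 341 and 348 TPM in the GCN2-deletion line, and at 28.7, 29.6 and 26.9 TPM and then 70.6, 64.9 and 65.9 TPM in the PERK-deletion line (response difference -3.52 ± 0.07, limma adjusted p = 3.18e-09). Gadd45a, a growth arrest gene, went from 10.4, 8.19 and 7.38 TPM to 169, 172 and 181 TPM in the GCN2-deletion line. Its PERK-deletion libraries held 20.3, 24.4 and 21.0 TPM and 31.3, 33.4 and 34.1 TPM, a rise that passed the test but was smaller by 3.62 ± 0.15 on the log2 scale. Adm2, a secreted peptide hormone, was below 1 TPM in every library of the PERK-deletion line and in all DMSO libraries of the other. It was at 20.8, 21.0 and 21.5 TPM in the 3 GCN2-deletion libraries with thapsigargin (response difference -3.46 ± 0.15, limma adjusted p = 3.41e-07). Sesn2, an inhibitor of mTORC1 signalling, rose by 2.88 and 0.51 in the GCN2- and PERK-deletion lines. Ppp1r15a, which encodes GADD34 and recruits the phosphatase that reverses eIF2alpha phosphorylation, rose by 2.85 and 0.70. Vldlr, a lipoprotein receptor, rose by 2.81 in the GCN2-deletion line. Its PERK-deletion effect was 0.18 (limma adjusted p = 0.611). Herpud1, which serves ER-associated degradation, rose in both lines, by 4.50 and 2.89. Ndrg1, a stress-induced gene also raised by hypoxia, and Sqstm1, an autophagy receptor, had response differences of -1.74 and -0.61.

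**Figure D2:**
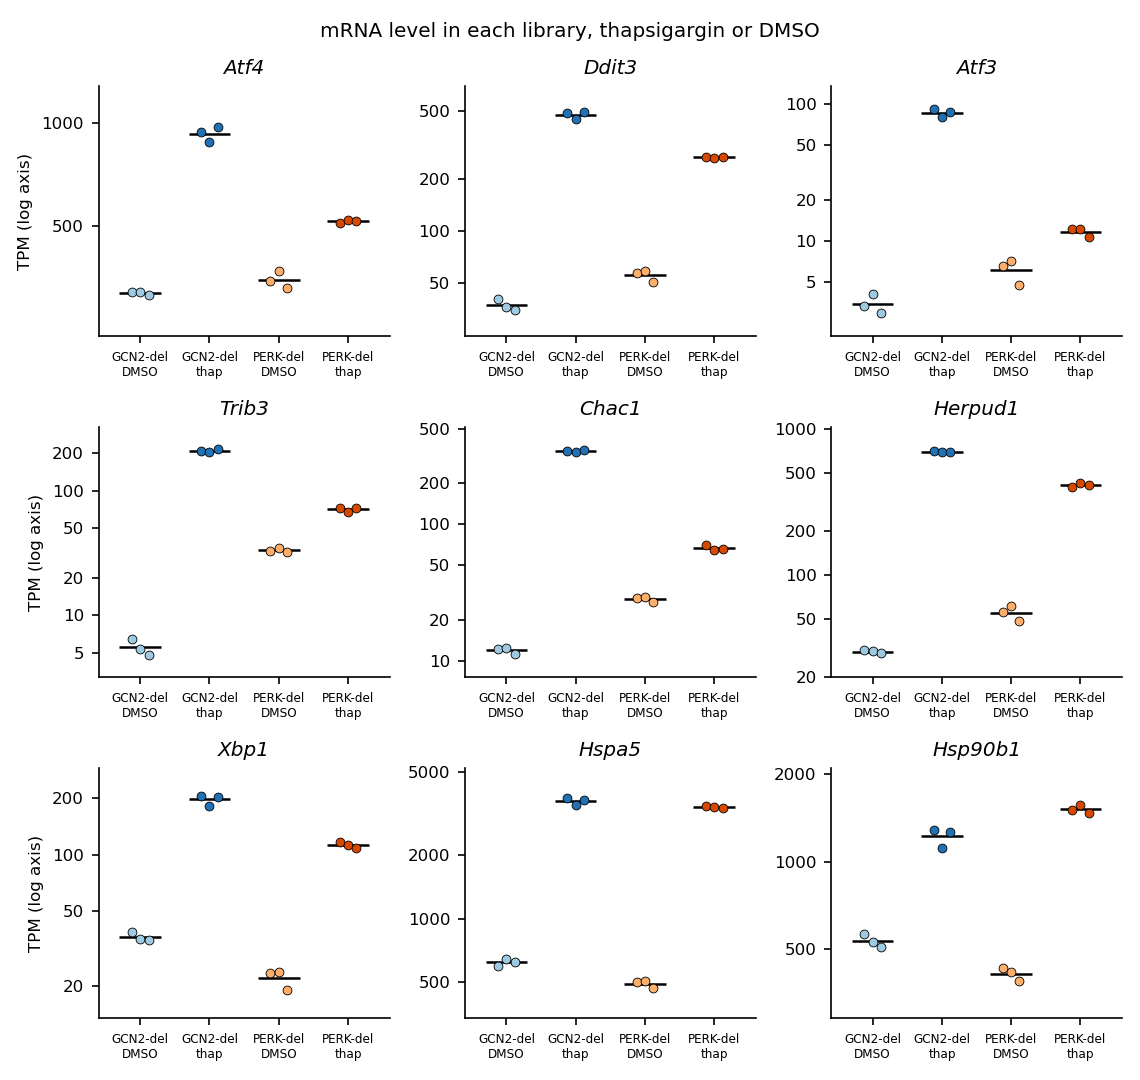
TPM of 9 genes in each of the 12 libraries on logarithmic axes, with DMSO or thapsigargin (thap) in the GCN2-deletion (blue) and PERK-deletion (orange) lines; points are libraries and bars the means of 3. For Trib3 and Chac1 the PERK-deletion libraries are above the GCN2-deletion ones with DMSO and below them with thapsigargin, whereas for Hspa5 both lines end between 3369 and 3749 TPM.

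Promoters of these genes were searched for the letters TGATGNAA, the core of the CCAAT-enhancer and ATF composite element (CARE) that ATF4 is known to bind. The windows are the 250 bases before RefSeq start sites on GRCm38.p6, read on both strands. Of 24 ATF4 and CHOP factors and targets with a window, 7 held a match (29.2%), against 3.45% of all 32851 windows and 2.3% of the 9756 genes tested that had one. The 7 were Atf3, Nupr1, Jdp2, Chac1, Vldlr, Herpud1 and Fgf21. Amino acid synthesis genes held it in 4 of 12 (Asns, Pycr1, Got1 and Pck2). In all 8 motifs were searched on both strands, and those shown were picked after their matches were seen. The others were TGATGNAAT (in 0.816% of all windows and 2 of the 24 genes) and TGATGCAAT (0.167%, 2 of 24), both contained in the first, the UPRE core TGACGTGG (0.563%, 1 of 24), the sterol element TCACNCCAC (1.05%, 0 of 24), the cyclic AMP element TGACGTCA (1.55%, 1 of 24), the cell cycle element TTTGAA (5252 of the 32851 windows, 2 of 24) and the ER stress element described with the chaperones. A match is a description of the letters and not a measured binding site. The 4 windows below are shown because their genes had the lowest response differences among the listed genes with a match (Chac1, Atf3), respond in both (Herpud1) or supply amino acids (Asns), with the match in capitals.
Chac1, chr2:119350992-119351241, plus strand: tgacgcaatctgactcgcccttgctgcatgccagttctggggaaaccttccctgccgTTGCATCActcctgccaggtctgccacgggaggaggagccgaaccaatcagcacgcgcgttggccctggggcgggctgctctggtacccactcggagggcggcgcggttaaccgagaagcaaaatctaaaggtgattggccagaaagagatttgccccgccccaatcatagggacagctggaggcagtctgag
Atf3, chr1:191183334-191183583, minus strand: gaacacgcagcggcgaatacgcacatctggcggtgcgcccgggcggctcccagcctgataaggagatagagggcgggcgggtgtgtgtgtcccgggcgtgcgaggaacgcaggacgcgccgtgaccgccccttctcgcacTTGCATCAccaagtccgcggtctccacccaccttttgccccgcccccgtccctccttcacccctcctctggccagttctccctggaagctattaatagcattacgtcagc
Herpud1, chr8:94386179-94386428, plus strand: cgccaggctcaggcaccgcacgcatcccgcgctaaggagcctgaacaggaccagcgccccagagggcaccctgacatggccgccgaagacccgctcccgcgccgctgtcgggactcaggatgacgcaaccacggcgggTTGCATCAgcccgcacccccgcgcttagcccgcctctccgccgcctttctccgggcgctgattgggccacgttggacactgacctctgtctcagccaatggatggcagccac
Asns, chr6:7693210-7693459, minus strand: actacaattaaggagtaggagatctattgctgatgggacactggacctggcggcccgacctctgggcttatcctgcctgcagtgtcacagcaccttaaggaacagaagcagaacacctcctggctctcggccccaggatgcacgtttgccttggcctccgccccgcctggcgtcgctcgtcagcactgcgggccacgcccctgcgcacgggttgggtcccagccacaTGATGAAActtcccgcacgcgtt
The match began 193 bases before the start of Chac1, 110 before Atf3, 112 before Herpud1 and 23 before Asns. In Asns the letters lie on the strand shown, and in the other 3 they appear as the reverse complement.

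Genes that make amino acids and one-carbon units rose in the GCN2-deletion line, all 14 tested of 15 listed, and 5 rose in the PERK-deletion line. All 14 had a lower response in the PERK-deletion line (13 after rescaling), with a median response difference of -1.02. Asns, asparagine synthetase, held 88.5, 87.9 and 90.8 TPM with DMSO and 242, 218 and 237 TPM after thapsigargin in GCN2-deletion cells. The PERK-deletion libraries held 147, 142 and 137 TPM and 152, 153 and 151 TPM. Their level with DMSO was already above that of the GCN2-deletion line, and the effect of 0.10 ± 0.04 did not pass the test (limma adjusted p = 0.268), whereas the response difference of -1.27 ± 0.06 did (limma adjusted p = 6.23e-07). Gpt2, a mitochondrial alanine aminotransferase, and Cth, the cystathionine lyase that yields cysteine, had the lowest values of the list, -2.28 ± 0.15 and -2.14 ± 0.10. Aldh1l2, a mitochondrial folate enzyme, rose by 2.40 and 0.52, and Pck2, the mitochondrial PEP carboxykinase, rose by 1.84 in GCN2-deletion cells. The PERK-deletion effect of Pck2, 0.22 (limma adjusted p = 0.0463), was no longer called when any of 9 single libraries was left out, all 6 of that line among them and GCN2-deletion thapsigargin 3 and DMSO 2 and 3. Psat1, of serine synthesis, rose by 0.59 in the GCN2-deletion line, and its smaller response difference of -0.45 ± 0.08 was called as well (limma adjusted p = 0.00268).

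Amino acid transporters followed. Of 15 tested, 13 rose in the GCN2-deletion line and 5 in PERK-deletion cells, and 11 had a lower response in the latter (9 after rescaling), with a median of -0.99. Slc7a11, the cystine importer, went from 1.03, 1.16 and 1.32 TPM to 17.2, 17.5 and 16.3 TPM in the GCN2-deletion line and from 3.08, 3.05 and 3.19 TPM to 4.94, 5.53 and 4.63 TPM in the PERK-deletion line. The groups did not overlap, and the response difference was -2.50 ± 0.12 (limma adjusted p = 5.75e-07). Slc6a9 and Slc7a1, carriers of glycine and of cationic amino acids, rose in both lines, Slc6a9 by 2.44 and 0.61 and Slc7a1 by 2.04 and 0.36. Slc1a4, a neutral amino acid carrier, rose by 1.70 in the GCN2-deletion line, beside -0.16 in the other (limma adjusted p = 0.172). Cytosolic tRNA synthetases, which charge tRNAs with amino acids, rose in the GCN2-deletion line in 16 of 20, and 1 rose in the PERK-deletion line. After rescaling 14 rose and 2 fell in the first line and 6 rose in the second. Their median response difference was -0.60, with 16 lower as deposited, and 12 lower and 2 higher after rescaling. Aars, for alanine, was at 124, 126 and 127 TPM and 279.7, 259 and 272 TPM in the GCN2-deletion line and at 189, 189 and 172 TPM and 206, 197 and 206 TPM in the PERK-deletion line. Cars, Yars and Tars had response differences of -0.94, -0.87 and -0.84. Of 15 genes for eIF2, its exchange factor and its phosphatase, 6 had a lower response (4 lower and 1 higher after rescaling). The lowest after Ppp1r15a was Ppp1r15b, the constitutive phosphatase partner, which rose by 0.43 in the GCN2-deletion line and fell by 0.37 in the PERK-deletion line, a fall not called against untreated cells.

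**Figure D3:**
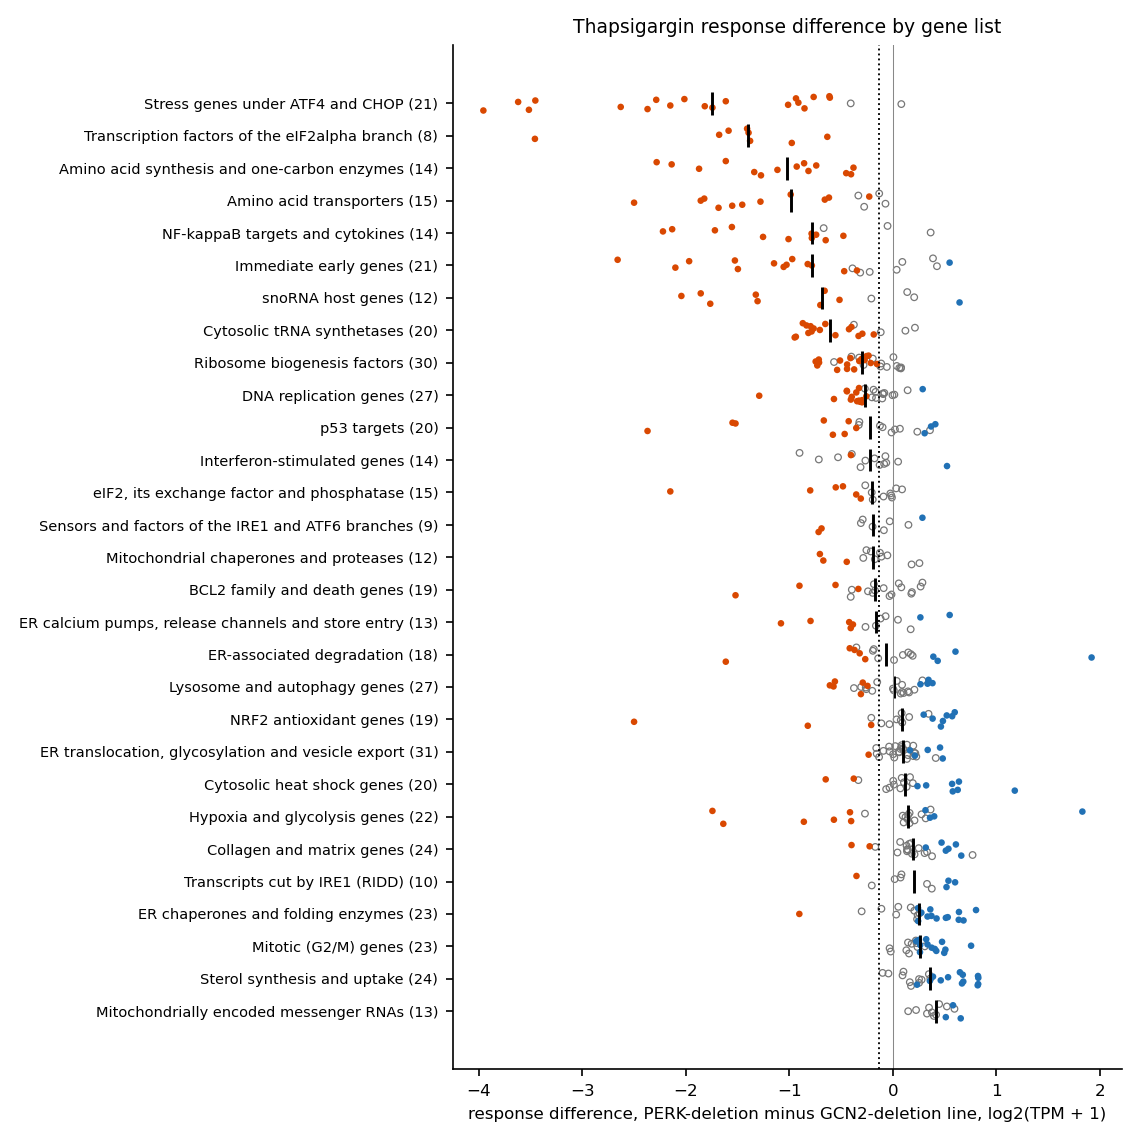
Response difference on log2(TPM + 1) of each tested member of 29 gene lists (number tested in brackets); filled points were called at an adjusted p under 0.05 (orange lower, blue higher), open points were not, black bars are list medians and the dotted line is the median of all genes, -0.14. Medians run from -1.74 for stress genes under ATF4 and CHOP to 0.42 for mitochondrially encoded mRNAs. Some lists, ER-associated degradation and lysosome and autophagy genes among them, turned from more lower to more higher calls with rescaling.

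Of 9 tested sensors and factors of the IRE1 and ATF6 arms (10 listed), 2 had a lower and 1 a higher response in PERK-deletion cells, and 2 each after rescaling. Xbp1 held 38.9, 35.7 and 35.1 TPM with DMSO and 204, 181 and 202 TPM after thapsigargin in GCN2-deletion cells. PERK-deletion cells held 23.5, 23.8 and 19.0 TPM and 117, 112 and 108 TPM. The PERK-deletion libraries were lower at both points, and the rises of 2.39 and 2.30 on the log2 scale left a response difference of -0.09 ± 0.12 (limma adjusted p = 0.639). TPM of the whole gene does not show splicing. Ern1, the gene for IRE1, and Atf6 had lower responses, -0.72 ± 0.11 and -0.69 ± 0.10, each rising in the GCN2-deletion line by 0.58 and 0.90. Their PERK-deletion effects were -0.14 and 0.21 (limma adjusted p = 0.406 and 0.135). Creb3l2, an ER-bound factor cleaved like ATF6, rose in both lines, by 1.06 and 1.34. Its response difference of 0.28 was no longer called without PERK-deletion thapsigargin 2, without GCN2-deletion thapsigargin 3 or without the 3 libraries above 2% microRNA.

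ER chaperones and folding enzymes rose in both lines, 20 of 23 in each, and 13 had a higher response in the PERK-deletion line while 1 had a lower response. After rescaling the counts were 19 and 1, and the lowest count of higher responses under any alternative was 11. The median response difference was 0.26. Hspa5, the gene for the chaperone BiP (chromosome 2, 34771970 to 34777547, plus strand), held 599, 643 and 624 TPM with DMSO and 3749, 3469 and 3677 TPM after thapsigargin in GCN2-deletion cells. It held 502, 508 and 468 TPM and 3432, 3414 and 3369 TPM in the PERK-deletion line. The thapsigargin libraries of the PERK-deletion line lay just below those of the other line without overlap, after a lower start. The response difference of 0.24 ± 0.07 (limma adjusted p = 0.0216) was fragile. Quantile normalization turned it to -0.27, which was called in the opposite direction (limma adjusted p = 0.00852). The call was lost without the TPM filter, without PERK-deletion thapsigargin 1 or without GCN2-deletion DMSO 2.

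Hsp90b1, which encodes GRP94, was higher at its end point. It went from 564, 529 and 509 TPM to 1285, 1114 and 1270.0 TPM in the GCN2-deletion line and from 433, 418 and 388 TPM to 1508, 1568 and 1474 TPM in the PERK-deletion line, which began lower and ended higher without overlap (response difference 0.68 ± 0.09, limma adjusted p = 0.00042). Manf, a secreted ER stress protein, rose by 2.31 in the PERK-deletion line and 1.68 in the other. Calr, the calcium-binding lectin chaperone calreticulin, rose by 1.48 and 0.84, although quantile normalization ended the call of its difference. Fkbp14, a prolyl isomerase, rose by 0.96 in the PERK-deletion line, and its effect in the GCN2-deletion line was 0.15 (limma adjusted p = 0.261). Sdf2l1, a BiP cofactor, had the largest rise of the PERK-deletion line among the genes eligible to be named, from 21.9, 25.6 and 21.0 TPM to 213, 191 and 199.6 TPM, beside 21.7, 20.9 and 17.2 TPM and 148, 143 and 151 TPM in the GCN2-deletion line. The exception of the list was Dnajb9, which encodes the BiP regulator ERdj4. It went from 5.11, 5.37 and 5.59 TPM to 49.9, 47.6 and 52.2 TPM in the GCN2-deletion line and from 6.15, 5.59 and 5.71 TPM to 29.1, 27.7 and 27.6 TPM in the PERK-deletion line, a response difference of -0.90 ± 0.08 (limma adjusted p = 3.20e-05).

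The ER stress element (ERSE), which joins CCAAT and CCACG across a spacer of 9 bases, is known to bind ATF6 together with the CCAAT factor NF-Y. It was found in the windows of 7 of 19 chaperone genes (36.8%), against 0.113% of all windows and 17 of 9756 genes tested (0.174%). The 7 were Hspa5, Hsp90b1, Calr, Canx, Pdia6, Dnajc3 and Creld2. Among the 24 ATF4 and CHOP genes with a window 0 held these letters, which says only that the letters are not in those 250 bases. In turn, the CARE letters, in 2.3% of genes tested, were in 2 of 19 chaperone genes (Cnpy2 and Txndc5). They were also in 2 of 15 ER-associated degradation genes and 3 of 12 tRNA synthetases. The windows of Hspa5, whose lines ended at like levels, and Hsp90b1, with the higher response in the PERK-deletion line, are shown with each ERSE match in capitals.
Hspa5, chr2:34771840-34772089, plus strand: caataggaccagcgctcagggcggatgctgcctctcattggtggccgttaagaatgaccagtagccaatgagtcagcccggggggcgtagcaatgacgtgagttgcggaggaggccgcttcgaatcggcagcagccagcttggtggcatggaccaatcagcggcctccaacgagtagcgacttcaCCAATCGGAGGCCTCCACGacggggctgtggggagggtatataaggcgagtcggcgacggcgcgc
Hsp90b1, chr10:86705445-86705694, minus strand: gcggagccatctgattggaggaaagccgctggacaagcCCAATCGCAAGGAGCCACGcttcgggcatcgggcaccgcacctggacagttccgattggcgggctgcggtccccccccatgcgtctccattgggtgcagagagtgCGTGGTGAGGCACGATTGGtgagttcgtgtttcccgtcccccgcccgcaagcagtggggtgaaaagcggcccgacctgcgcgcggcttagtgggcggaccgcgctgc
The match of Hspa5 began 65 bases before the start, and those of Hsp90b1 began 212 and 107 bases before it, the second as the reverse complement.

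ER-associated degradation returns misfolded proteins to the cytosol for disposal, and its genes were called in both directions. Of 18 tested of 20 listed, 15 rose in the GCN2-deletion line (9 after rescaling, when 1 fell) and 10 in PERK-deletion cells. The response was lower for 5 and higher for 4 as deposited, and lower for 3 and higher for 6 after rescaling. Herpud1 was at 30.5, 29.8 and 29.0 TPM and 702, 689 and 697 TPM in the GCN2-deletion line and at 55.5, 60.7 and 48.2 TPM and 398, 422 and 412 TPM in the PERK-deletion line. It began higher and ended lower in the PERK-deletion line, with a response difference of -1.61 ± 0.10 (limma adjusted p = 2.77e-06), and was still the second-highest riser of that line at 2.89. Derl3, a derlin of the retrotranslocation channel, was the reverse. Its PERK-deletion libraries held 4.06, 4.35 and 5.23 TPM with thapsigargin, and every other library was below 0.5 TPM (response difference 1.92 ± 0.22, limma adjusted p = 0.000134). Selenok rose by 1.15 in the PERK-deletion line and 0.55 in the other, and Edem1, a mannosidase-like lectin, by 1.51 and 1.12. Genes of ER translocation, glycosylation and export rose in both lines, 19 of 31 in the PERK-deletion line and 21 in the GCN2-deletion line, where 2 fell (12 and 5 after rescaling). Their count of higher responses was 5 as deposited and 20 after rescaling, with 1 and 0 lower. Sec24d, of the COPII coat, rose by 0.68 and 0.22, and Ostc, of the oligosaccharyltransferase, by 0.60 and 0.27, but the smaller GCN2-deletion rise of each was not called after rescaling.

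Of 10 mRNAs known from other systems as substrates of IRE1's decay activity, 6 fell and 1 rose in the GCN2-deletion line. In PERK-deletion cells 4 fell and 2 rose. Falls took 12.2% and 3.31% of all genes in these lines. The response was higher in the PERK-deletion line for 3 and lower for 1, and for 6 and 0 after rescaling. Scara3, a scavenger receptor, was lowered most: from 21.0, 20.04 and 19.96 TPM to 2.91, 2.87 and 3.34 TPM, and from 14.2, 14.5 and 13.5 TPM to 2.70, 3.06 and 3.52 TPM in the PERK-deletion line. The lines differed with DMSO and overlapped with thapsigargin, and the response difference was 0.52 ± 0.12 (limma adjusted p = 0.00792). Of the 6 deepest falls of the PERK-deletion line among the genes eligible to be named, 4 were also called as falls in the other line. Pbxip1, a nuclear receptor cofactor, fell by 2.11 in the PERK-deletion line and 1.65 in the other. Its response difference of -0.46 (limma adjusted p = 0.0168) was not called after rescaling or quantile normalization. Angptl2, a secreted glycoprotein, fell by 1.73 and 1.56 (response difference -0.17, limma adjusted p = 0.0813). Egfl7, also of the 6, had a response difference of -1.51 (limma adjusted p = 0.00592). Of 13 genes for ER calcium handling, Stim2, a sensor of ER calcium, had the lowest response difference at -1.08 ± 0.16. Stim2 libraries held 28.5, 30.7 and 31.7 TPM with DMSO and 11.4, 10.3 and 9.53 TPM with thapsigargin in the PERK-deletion line, against 31.6, 33.9 and 34.0 TPM and 29.8, 26.3 and 20.8 TPM.

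Sterol synthesis genes, targets of SREBP2, rose in the PERK-deletion line in 20 of 24, against 15 in the GCN2-deletion line, where 1 fell (10 and 5 after rescaling). The response was higher in the PERK-deletion line for 13 as deposited and 19 after rescaling, with a median difference of 0.36. Hmgcs1, the cytosolic HMG-CoA synthase, was at 148, 153 and 144 TPM with DMSO and 184, 164 and 177.3 TPM after thapsigargin in GCN2-deletion cells. PERK-deletion cells had it at 94.2, 97.3 and 85.9 TPM and 187, 194 and 198 TPM. The PERK-deletion libraries started below and ended above those of the other line (response difference 0.82 ± 0.08, limma adjusted p = 5.66e-05). Idi1, the isopentenyl diphosphate isomerase, and Nsdhl, a sterol dehydrogenase, rose by 0.89 and 0.76 in the PERK-deletion line. Their GCN2-deletion effects were 0.07 and -0.06 (limma adjusted p = 0.483 and 0.539). Dhcr7, the last step to cholesterol, rose by 0.46 in the PERK-deletion line and fell by 0.37 in the other. The rise of Dhcr7 was not called against untreated cells or without PERK-deletion thapsigargin 1, 2 or 3 or DMSO 1 or 3, and the fall was not called without GCN2-deletion thapsigargin 1 or 3.

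Many immediate early genes and cytokines rose in the GCN2-deletion line and fell or were not called in the PERK-deletion line. Of 21 immediate early genes, 13 rose and 4 fell in the GCN2-deletion line, and 2 rose and 9 fell in the PERK-deletion line. The response was lower in the PERK-deletion line for 13 (12 after rescaling) and higher for 1 (4 after rescaling), with a median of -0.78. Klf4, a zinc-finger factor, went from 9.30, 7.90 and 8.48 TPM to 90.8, 82.1 and 92.9 TPM in the GCN2-deletion line and from 3.27, 3.42 and 3.57 TPM to 5.69, 5.57 and 5.39 TPM in the PERK-deletion line (response difference -2.66 ± 0.10, limma adjusted p = 1.77e-07). Myc rose from 167, 151 and 148 TPM to 478, 474 and 449.8 TPM in the GCN2-deletion line and fell from 103, 119 and 107 TPM to 79.5, 85.1 and 85.8 TPM in the PERK-deletion line, a fall not called against untreated cells. Egr1, a serum-induced factor, fell in the PERK-deletion line and was not called in the other. It went there from 59.6, 67.9 and 55.3 TPM to 16.3, 15.9 and 15.0 TPM, beside 118, 106 and 92.6 TPM and 134, 115 and 119 TPM in the GCN2-deletion line, where groups overlapped. Of the 14 NF-kappaB targets and cytokines tested of 17 listed, 10 rose and 2 fell in the GCN2-deletion line. In the PERK-deletion line 4 fell, and 11 had a lower response on both scales. With DMSO 8 of the 14 were already higher in the PERK-deletion line and 4 lower, against 35.5% and 17.3% of all genes. Ccl2, a monocyte chemoattractant, held 25.7, 23.7 and 23.7 TPM and 105, 80.1 and 109.8 TPM in the GCN2-deletion line and 79.2, 87.6 and 66.7 TPM and 64.6, 63.8 and 64.2 TPM in the PERK-deletion line, so its level with thapsigargin overlapped the PERK-deletion DMSO level. Lif, a cytokine of the IL-6 family, rose by 1.57 in the GCN2-deletion line and fell by 0.57 in the other. That fall was not called without PERK-deletion thapsigargin 2 or 3 or DMSO 2 or 3. Ccl7 and Ptgs2, the gene for COX-2, rose by 2.16 and 1.53 in the GCN2-deletion line, and their PERK-deletion effects were 0.44 and -0.03 (limma adjusted p = 0.0785 and 0.879).

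Host genes of small nucleolar RNAs, many of whose spliced transcripts are cleared by nonsense-mediated decay, rose in the GCN2-deletion line in 8 of the 12 tested of 15 listed, and 1 fell. In the PERK-deletion line 0 were called by limma (3 fell at an unadjusted p under 0.05). The response was lower for 8 on both scales, with a median of -0.68. Snhg12 held 92.3, 66.0 and 68.3 TPM and then 291, 300.5 and 301 TPM in the GCN2-deletion line, against 61.3, 70.0 and 65.7 TPM and 62.8, 62.8 and 62.5 TPM in the PERK-deletion line (response difference -2.04 ± 0.15, limma adjusted p = 8.89e-06). Snhg17, Snhg1 and Snhg15 had response differences of -1.86, -1.76 and -1.32. Snhg3 was the exception, with a fall of 0.80 in the GCN2-deletion line and a response difference of 0.64. Ribosome biogenesis factors rose in 20 of 30 in GCN2-deletion cells (9 rose and 4 fell after rescaling), and in the PERK-deletion line 0 were called by limma (3 fell at an unadjusted p under 0.05). Their lower responses numbered 17 as deposited and 8 after rescaling, when 4 were higher. Rrp12, which exports pre-ribosomes, rose by 0.71 in the GCN2-deletion line and was not called in the other (limma adjusted p = 1).

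Mitotic genes fell in the GCN2-deletion line, 19 of 23, and 0 were called in the PERK-deletion line by limma (3 fell at an unadjusted p under 0.05). The response was higher in the PERK-deletion line for 13 as deposited and 22 after rescaling. Plk1, a mitotic kinase, held 102, 101 and 100.1 TPM and 63.9, 64.5 and 64.7 TPM in the GCN2-deletion line and 79.6, 87.2 and 79.3 TPM and 74.6, 73.4 and 74.0 TPM in the PERK-deletion line. The fall of 0.64 in the first line and the effect of -0.15 in the second (limma adjusted p = 0.051) gave a response difference of 0.50 ± 0.05 (limma adjusted p = 0.000112). Aurka and Ube2c, a mitotic kinase and a ubiquitin-conjugating enzyme, had response differences of 0.51 and 0.47. DNA replication genes rose in 16 of 27 in the GCN2-deletion line and 1 rose in the PERK-deletion line. They had 14 lower and 1 higher response as deposited, and 5 lower and 2 higher after rescaling. Cdt1, the licensing factor, was the lowest at -1.29 ± 0.09. Of 13 mitochondrially encoded mRNAs, 8 fell in the GCN2-deletion line (13 after rescaling) and 0 were called in the PERK-deletion line by limma, also at an unadjusted p under 0.05. Higher responses numbered 3 as deposited, 9 after rescaling, and between 0 and 9 over the alternatives.

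Most matrix genes stood lower in PERK-deletion cells before treatment. Of 24 collagen and matrix genes tested of 27 listed, 22 were lower in the PERK-deletion line with DMSO, against 17.3% of all genes (35.5% were higher). With thapsigargin 14 fell in the GCN2-deletion line and 3 in PERK-deletion cells, and the response was higher in the PERK-deletion line for 6 (19 after rescaling) and lower for 2 (0 after rescaling). Col1a2, a chain of collagen type I, held 527, 498 and 457 TPM with DMSO and 312, 290.5 and 330.2 TPM after thapsigargin in GCN2-deletion cells. The PERK-deletion libraries held 120.5, 133 and 114 TPM and 123.4, 117 and 126 TPM, overlapping each other and far below the other line.

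The 12 highest response differences among genes eligible to be named (called, at least 5 TPM in a group, conventional protein or RNA genes) belonged to genes that fell in the GCN2-deletion line, all 12 with effects of -0.99 to -2.06 on the log2 scale. In the PERK-deletion line 0 of them were called by limma, and 1 passed an unadjusted p under 0.05. S100a11, a calcium-binding protein, held 2241, 2266 and 2194 TPM with DMSO and 709, 687 and 726 TPM after thapsigargin in GCN2-deletion cells. The PERK-deletion libraries held 1923, 1940.0 and 1827 TPM and 1903, 1915 and 1878 TPM, which overlap (response difference 1.66 ± 0.06, limma adjusted p = 9.44e-08). S100a4, of the same family, went from 304, 436 and 426 TPM to 116, 146 and 135 TPM, beside 138, 138 and 141 TPM and 143, 138 and 143 TPM. Uqcrh, a subunit of respiratory complex III, went from 309, 420.2 and 411 TPM to 133, 129 and 114 TPM, beside 427, 432 and 437 TPM and 418, 426 and 425 TPM. Trappc1, of a vesicle tethering complex, and Crip1, a small LIM protein, had response differences of 1.38 and 1.43, and Glrx, a glutaredoxin, of 1.33. For 5 of the 12, namely Adm, Foxs1, S1pr3, Bcl6b and Gper1, every PERK-deletion library was below 1.1 TPM, where a further fall can hardly appear on log2(TPM + 1). Adm, the vasodilator adrenomedullin, held 9.88, 10.7 and 9.57 TPM and 1.93, 1.23 and 1.82 TPM in the GCN2-deletion line and 0.865, 0.665 and 0.542 TPM and 0.409, 0.389 and 0.512 TPM in the PERK-deletion line. The remaining gene of the 12, Prl2c3, has near-identical family copies, so its value is uncertain.

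The 12 lowest differences all came with a rise in the GCN2-deletion line, and 7 of them also rose in the PERK-deletion line. Beside Trib3, Gadd45a, Chac1, Atf3, Adm2, Klf4 and Vldlr they held 5 genes outside the stress lists. Txnip, an inhibitor of thioredoxin and glucose uptake, went from 16.9, 17.1 and 17.0 TPM to 120.3, 109 and 129 TPM in the GCN2-deletion line, beside 20.7, 22.03 and 19.8 TPM and 19.3, 19.8 and 17.8 TPM (response difference -2.87 ± 0.09, limma adjusted p = 7.79e-08). Ciart, a repressor in the circadian clock, rose in both lines, by 3.51 and 0.92. Acot2, a mitochondrial acyl-CoA thioesterase with close family copies, rose by 3.27 and 0.53. Cd209c, of a lectin family with close copies, rose by 3.23 in the GCN2-deletion line beside 0.27 in the other (limma adjusted p = 0.403). Zrsr1, a retrotransposed splicing factor gene, had a response difference of -3.03 ± 0.89 (limma adjusted p = 0.0271), but its replicates ranged from 9.64 to 60.3 TPM within PERK-deletion DMSO. Leaving out any of 6 single libraries ended that call: PERK-deletion thapsigargin 2, PERK-deletion DMSO 1 or 3, GCN2-deletion thapsigargin 2, or GCN2-deletion DMSO 2 or 3.

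The same lines were also starved of lysine and arginine for 6 h, which allowed the line difference under thapsigargin to be set against that under starvation in 1 model of 24 libraries. The starved groups share no library with the thapsigargin groups. This difference was lower under thapsigargin for 1141 genes (7.70%) and higher for 345 (2.33%). After rescaling 868 were lower and 921 higher, so the excess of lower calls depends on the scaling. Among those of at least 2-fold, 321 were lower and 74 higher as deposited, and 222 and 122 after rescaling. As deposited, all 8 ATF4 and CHOP factors, 18 of 21 targets, 14 of 14 amino acid synthesis genes and 13 of 20 tRNA synthetases were among the lower. Under starvation the response was higher in the PERK-deletion line for 8 of the 21 targets and 7 of the 14 synthesis genes, against 1.85% of all genes (2.42% were lower). It was lower there for 9 of the 21 immediate early genes and 9 of the 14 NF-kappaB targets and cytokines, as many were under thapsigargin. Between the stresses 5 of these immediate early genes were lower and 2 higher, and 4 of the NF-kappaB targets and cytokines were lower and 1 higher. Trib3 had a line difference of 1.99 ± 0.19 under starvation. Its GCN2-deletion libraries held 6.13, 5.89 and 6.02 TPM untreated and 1.53, 0.820 and 1.11 TPM starved. The PERK-deletion libraries held 27.2, 25.6 and 28.5 TPM, and 24.5, 37.1 and 39.2 TPM. Every starved GCN2-deletion library was thus below its untreated counterparts, and in the PERK-deletion line the groups overlapped. The line differences under the 2 stresses differed by -5.95 ± 0.27 (thapsigargin minus starvation, limma adjusted p = 1.14e-10). Chac1 gave 1.77 under starvation and Sesn2 1.14. Atf3 kept its direction, with -0.97 ± 0.21 under starvation, and its difference under thapsigargin was lower still (thapsigargin minus starvation -2.49). For Hspa5 the line difference was 0.38 ± 0.10 under starvation, and the test between the stresses gave -0.13 ± 0.14 (limma adjusted p = 0.631).

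**Figure D4:**
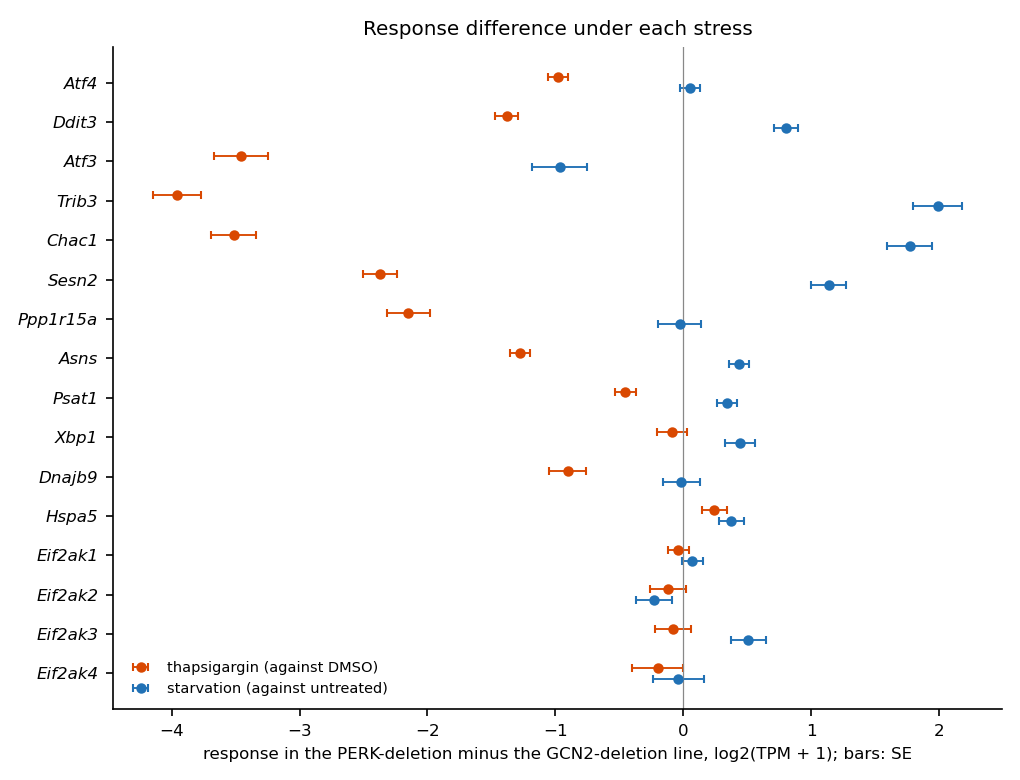
Response in the PERK-deletion line minus that in the GCN2-deletion line on log2(TPM + 1) for 16 genes, under thapsigargin (orange, against DMSO) and under amino acid starvation (blue, against untreated cells); points are estimates and bars their SE. Trib3 stands at -3.96 and 1.99, and Chac1 at -3.52 and 1.77, on opposite sides of 0, and Xbp1 and the kinases lie near 0 under thapsigargin.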

How the data were processed

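RNA of mouse embryonic fibroblasts was sequenced from stranded total RNA libraries. The authors deposited 1 table of TPM values per gene symbol for 36 libraries. The submitters' processing notes name FastQC, kallisto and mm10, without versions. How transcript values were summed to genes is not given in the sources used here. TPM keeps no depth, so no count test or counting interval was possible. Of 54735 symbols, 54106 matched GENCODE M21, which gave loci and gene classes.

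A gene was kept where 3 or more of the 12 libraries reached 1 TPM. Values were analysed as log2(TPM + 1), so fold changes of low genes are understated. limma 3.58.1 in R 4.3.3 fitted 4 groups with trended variances, and p-values were adjusted over the 14822 genes. The comparison with starvation used 8 groups and 24 libraries. Alternatives covered the control, scaling, pseudocount, filter, variance model, weights, libraries, genes tested and the replicate number. Same-numbered libraries showed no correlated deviations over all genes (-0.0819 to 0.0656), which cannot settle whether the numbers pair them. The main fit did not pair them, and a block for the number was an alternative.

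Genes were named by a rule: a panel of 16, the 12 highest and 12 lowest response differences, up to 4 per direction in each of 36 lists (29 pathway, 7 marker) and the 6 highest and lowest effects per line, with at least 5 TPM in a group and unconventional symbols left out. The members and lists were chosen with earlier results of these data known. A few further list members are named as exceptions or motif matches. Promoter windows are from RefSeq on GRCm38.p6. Tables and figures used Python 3.11.15, pandas 2.3.3 and matplotlib 3.10.9.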

Additional observations from a re-analysis of the deposited data

Results flagged for a closer look

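The 2 lines differed in their response to the same drug, by a test of the difference itself, for 902 genes with a higher and 3402 with a lower response in the PERK-deletion line (limma). After rescaling these were 2198 and 2089.

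The line difference also depended on the stress for 10 of the 16 panel genes, by limma's interaction term between line and stress. All 10 were lower under thapsigargin than under starvation. The values on the log2(TPM + 1) scale were -5.95 for Trib3, -5.29 for Chac1, -3.51 for Sesn2, -2.49 for Atf3, -2.19 for Ddit3, -2.13 for Ppp1r15a, -1.71 for Asns, -1.03 for Atf4, -0.89 for Dnajb9 and -0.8 for Psat1. The thapsigargin arm was set against DMSO and the starvation arm against untreated cells. With untreated cells as the control of both, the untreated terms cancel, and thapsigargin libraries are set against starved ones directly. The values in the same order were then -5.54, -5.28, -3.34, -2.53, -2.14, -2.04, -1.57, -0.89, -0.73 and -0.70, and limma called all 10. Eif2ak3 was called there as well (-0.49 ± 0.14, limma adjusted p = 0.0157). Because no untreated library has weight in that contrast, it cannot test the choice of control.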

How the results depend on the processing

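Median-of-ratios rescaling gave 2198 higher and 2089 lower response differences, with 133 and 251 by 2-fold. Quantile normalization gave 1800 and 1904, with 130 and 232. Array weights gave 1452 and 5286, and protein-coding genes only gave 47 higher by 2-fold. In the PERK-deletion line array weights gave 750 that rose and 1227 that fell, and leaving out the 3 libraries above 2% microRNA gave 1011 that fell. In the GCN2-deletion line 3385 fell after rescaling and 3091 after quantile normalization. Between the stresses, untreated cells as the control of both, which cancel from the contrast, gave 789 higher and 2491 lower. Rescaling gave 921 higher and 868 lower between the stresses. Leaving out 1 library gave 721 to 1215 higher and 2820 to 4226 lower differences, with 77 to 92 and 373 to 451 by 2-fold. It gave 316 to 587 that rose and 235 to 795 that fell in the PERK-deletion line, and 3789 to 4834 and 1569 to 1892 in the GCN2-deletion line. The PERK-deletion falls were 244, 259 and 286 without thapsigargin 1, 2 or 3 of that line, 310 and 235 without its DMSO 1 or 2, and 795 without GCN2-deletion DMSO 1. Single genes and counts of list members were followed together, as 14301 values. Of these, 13446 were kept, which for a gene means the same direction and side of the threshold. For a list count it means only that the count was not classed as moved. All 251 values that moved were list counts. Among single genes 463 values lost the call, 137 gained it and 4 reversed. Those 4 were the response differences of Hspa5 (-0.265) and Gclc (0.00533) under quantile normalization, and with the untreated control the PERK-deletion effects of Hspa8 (-0.207) and Gtse1 (0.151). The cause was not tested. The replicate block gave 815 higher and 3196 lower differences, 394 and 335 in the PERK-deletion line, 4239 and 1727 in the GCN2-deletion line, and 309 and 1046 between the stresses. Of 12 libraries, 3 correlated best with their own number. Depth cannot be weighed, since TPM does not keep it.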

Other observations

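Counts in other gene groups are read against the shares over all genes, 23.0% lower and 6.09% higher, or 14.1% and 14.8% after rescaling. Of 19 NRF2 antioxidant genes, 7 had a higher and 3 a lower response in PERK-deletion cells (10 and 2 after rescaling), and 9 fell in the GCN2-deletion line. Hmox1, heme oxygenase, held 94.6, 105 and 106 TPM with DMSO and 236, 213 and 213 TPM with thapsigargin in GCN2-deletion cells, and 186, 214 and 189.7 TPM and 231, 242 and 244 TPM in the PERK-deletion line (response difference -0.82 ± 0.09, limma adjusted p = 0.000145). Txn1, thioredoxin, and Prdx1, a peroxiredoxin, had differences of 0.57 and 0.52. Of 20 cytosolic heat shock genes, 7 were higher and 2 lower (11 and 1 after rescaling), with Dnajb4, an HSP40 cochaperone, at 0.64 ± 0.12. Of 20 p53 targets, 8 were lower and 3 higher, and 4 each after rescaling. Plk2, a stress-induced polo-like kinase, stood at -1.55. Rrm2b, a ribonucleotide reductase subunit, stood at -0.67, a call ended by rescaling and by quantile normalization.

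Of 22 hypoxia and glycolysis genes, 6 were lower and 4 higher (5 lower and 11 higher after rescaling). Vegfa, the angiogenic growth factor, held 86.1, 52.3 and 57.6 TPM and 218, 198 and 193 TPM in the GCN2-deletion line and 51.3, 58.7 and 54.2 TPM and 54.9, 56.1 and 54.5 TPM in the PERK-deletion line (response difference -1.64 ± 0.21, limma adjusted p = 0.000261). The next groups had shares of lower calls near or below those over all genes. Among 19 BCL2 family and death genes 4 were lower and 0 higher by limma (1 higher at an unadjusted p under 0.05), and 3 lower and 2 higher after rescaling, with Pmaip1, the gene for NOXA, at -1.52 ± 0.14. Of 12 mitochondrial chaperones and proteases 3 were lower and 0 higher by limma (2 higher at an unadjusted p under 0.05), and 3 lower and 2 higher after rescaling. Lonp1, a matrix protease, stood at -0.67. Lysosome and autophagy genes had 6 lower and 4 higher of 27 (3 and 10 after rescaling). Of 14 interferon-stimulated genes tested of 20 listed, 1 was lower and 1 higher, and 1 higher after rescaling.

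A few entries, picked after their values were seen, varied widely within groups. Gm19220 ranged from 572.83 to 40834 TPM over the 12 libraries, and its response difference was not called (-4.24, limma adjusted p = 0.1245). In GCN2-deletion DMSO it stood at 7128, 572.83 and 671.84 TPM. Grip2 was at 5428.4 and 6346.5 TPM in PERK-deletion DMSO 2 and thapsigargin 2, and between 257.31 and 522.99 TPM in the other 4 libraries of that line. Zrsr1, described above, was low in the same 2 libraries (9.64 and 10.993 TPM), as was Gm19220 (909.49 and 2762.7 TPM). Both libraries carry the replicate number 2, and whether the numbers pair libraries was not settled.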
